A study of Mus musculus with 4 samples.

Results

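The 9 transcription factor genes described here, Trp63, Grhl1, Grhl2, Grhl3, Ovol1, Klf4, Zfp750, Prdm1 and Gata3, control how keratinocytes of skin and oral lining leave the basal layer and build a barrier. They were chosen by symbol, and all 9 have a row among the 24972 gene rows of the deposited table. The assay was sequencing of polyadenylated RNA from dissected mandibular dental arches (the jaw tissue that carries the lower teeth) of mouse embryos on embryonic day 17.5. The mutant group, labelled Ascl5Mut/Mut and homozygous for a variant of the basic helix-loop-helix factor gene Ascl5, has 2 libraries, with the sample codes 18 and 14. The wild-type group, labelled Ascl5WT/WT, has 2 libraries, with the codes 15 and 20. The codes are sample names, not embryonic days. The labels name no transgene or treatment, and give neither strain nor litter nor what the variant does to the gene. Nothing says that the samples came from separate litters or dissections, so a p-value reflects sample-to-sample spread that may be technical. Sex-linked transcripts, given below, differed between the wild-type libraries, so their spread may also hold a difference between sexes. For these genes the comparison asks whether regulators of the basal and of the later keratinocyte states differ between the genotypes.

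Keratinocytes of a stratified epithelium divide in the basal layer, move into the suprabasal layers, where they change their keratins, and end in a cornified layer of crosslinked protein and lipid. Trp63 encodes p63, the factor that sustains the basal, proliferative state and gives stratified epithelium its identity. The Grainyhead-like factors Grhl1, Grhl2 and Grhl3, the zinc finger factors Ovol1, Klf4 and Zfp750, the repressor Prdm1 (also called Blimp1) and Gata3 act in or towards the later states. Several are also used outside this lineage, Klf4 in vessel lining, Prdm1 and Gata3 in lymphocytes, and Gata3 in hair follicles and sympathetic neurons. In a whole dissected tissue, fewer cells of a type and less RNA per cell cannot be told apart.

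Values are the authors' normalized counts, which had totals between about 22134500 and 22578600 per library. Ascl5 itself was at 10.6 and 12.1 in mutant libraries 18 and 14 and at 21.8 and 37.3 in wild-type libraries 15 and 20 (log2 fold change -1.29, SE 0.48, limma, adjusted p = 0.9999). Xist, made from the inactive X chromosome, was at 7.64 and 5.005 in mutant 18 and 14, 38619 in wild-type 15 and 12.7 in wild-type 20, while the Y-linked gene Ddx3y was at 3027 and 2382 in mutant 18 and 14, 0 in wild-type 15 and 2489.7 in wild-type 20. Wild-type 15 alone thus had a female pattern. Mutant library 14 stood apart in salivary gland transcripts, with the secretory gland gene Smgc at 4219 there, 0.953 in mutant 18 and 0 in both wild-type libraries. The ameloblast genes of the labelled tissue were detected in all libraries, with Amelx, which encodes the main enamel matrix protein, at 2421 and 868 in mutant 18 and 14 and at 263 and 1621 in wild-type 15 and 20. Of the 7 ameloblast genes, Amelx and Enam had a log2 fold change above 0 (1.15 and 0.24) and the other 5 below 0, and Klk4, an enamel protease, was lower with no overlap (6.67 and 1.02 in mutant, 9.42 and 26.6 in wild type).

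None of the 9 factors passed the test across all genes, and all 9 had a log2 fold change above 0, as did 50.6% of all tested genes. Gata3, Ovol1 and Grhl1 lay about 2.03-fold, 1.995-fold and 1.90-fold higher, Grhl3 1.66-fold, Zfp750 1.42-fold, Prdm1 1.29-fold, Grhl2 1.22-fold, Trp63 1.17-fold and Klf4 1.14-fold, as fitted on the log2(value + 0.5) scale. Both mutant libraries lay above both wild-type libraries for 4 of the 9 (Grhl1, Ovol1, Prdm1 and Gata3), where 13.4% of all tested genes did so, and none of the 9 lay below without overlap, where 14% of all tested genes did. Those 4 genes were also highest in mutant 14, and 8.56% of all tested genes met both conditions. At an unadjusted p under 0.05 there were 3 (Grhl1, Ovol1 and Gata3), all higher. Of all tested genes, 4.27% passed that level, 3.12% higher and 1.15% lower. Called at an adjusted p under 0.05 were 0 of the 9, against 0.0111% of all tested genes (limma, 2 of 17979). The median log2 fold change of the 9 was 0.51, beside 0.0025 over all tested genes. Mutant library 14 held the highest value for 9 of 9 genes, a position it held for 25.9% of all tested genes. Without it the median over the 9 was 0.12, and without mutant 18 it was 0.91.

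**Figure D1:**
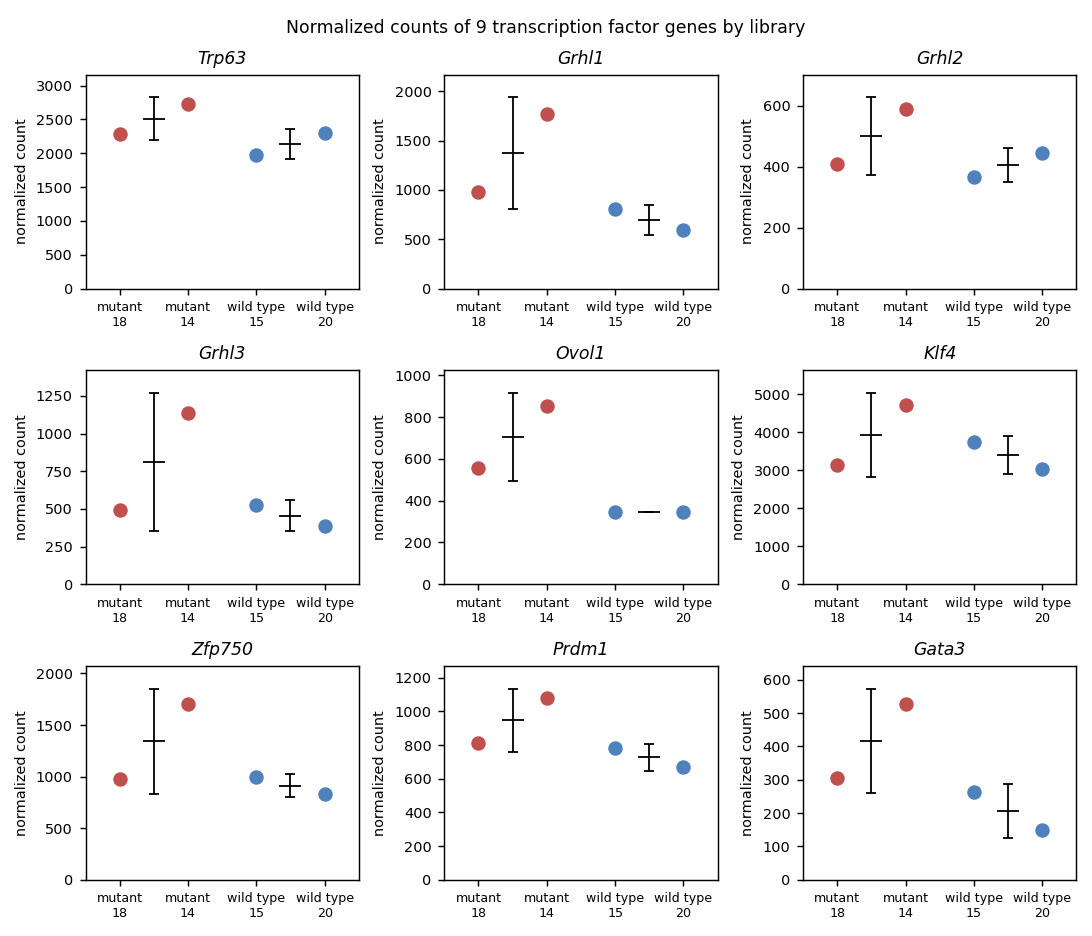
Normalized counts (vertical axes, from 0) of the 9 genes in mutant libraries 18 and 14 (red) and wild-type libraries 15 and 20 (blue); black bars give each genotype's mean ± SD (n = 2). Mutant 14 is the highest point in every panel, and the mutant points lie above both wild-type points for Grhl1, Ovol1, Prdm1 and Gata3.

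Gene positions are those of GENCODE M21 on GRCm38. Trp63, the basal state factor (chr16:25683763-25892102, plus strand), had 2289.55 and 2732 normalized counts in mutant libraries 18 and 14, against 1981 and 2295 in wild-type libraries 15 and 20. Mutant 18 lay between the wild-type values, just under wild-type 20, so the genotypes overlapped. Scaled to equal library totals, Trp63 had no overlap (log2 fold change 0.24), which makes 5 of the 9 factors, where 14.3% of all tested genes were higher with no overlap. The log2 fold change was 0.23 (SE 0.15), and the unadjusted p was 0.166 (limma, adjusted p = 0.9999). The counts are per gene, so the long and short p63 isoforms cannot be told apart.

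The 3 Grainyhead-like genes encode related factors that act on junction, barrier and wound repair genes of epithelia. Grhl1, which in mouse controls desmosomal cadherin genes of the skin (chr12:24572283-24617391, plus strand), had 974 and 1772 normalized counts in mutant 18 and 14, against 805 and 592 in wild-type 15 and 20. Both mutant libraries lay above both wild-type libraries, with wild-type 20 the lowest. Its log2 fold change was 0.93 (SE 0.28, unadjusted p = 0.0114, limma, adjusted p = 0.775).

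Grhl3, needed for skin barrier formation and neural tube closure in mouse (chr4:135541888-135573630, minus strand), had 489.8 and 1136 normalized counts in mutant 18 and 14, against 527 and 384 in wild-type 15 and 20. Its mean difference lay in mutant 14, since mutant 18 was below wild-type 15. The log2 fold change was 0.73 (SE 0.36, limma, adjusted p = 0.9999), and it was 0.12 without mutant 14.

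Grhl2, the family member used broadly in simple and stratified epithelia (chr15:37233036-37363569, plus strand), had 409 and 589.8 normalized counts in mutant 18 and 14, against 367 and 444 in wild-type 15 and 20. The genotypes overlapped (log2 fold change 0.28, SE 0.22, limma, adjusted p = 0.9999), and without mutant 14 the fold change was 0.020. Grhl2 shares 169 exon bases with the antisense gene Gm16136, which was at 124 and 211 in mutant and 111 and 145 in wild type. Whether the authors counted by strand is unknown, so reads of the pair may be mixed and the Grhl2 value is uncertain. The same limit holds for the antisense overlaps described for Ovol1 and Gata3.

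Per kilobase of exon, Grhl1 made up 44.1% and 40.2% of the summed Grainyhead-like level in mutant 18 and 14, against 38.5% and 36.1% in wild-type 15 and 20, with no overlap. Grhl2 made up 11.9% and 8.61% in mutant and 11.3% and 17.4% in wild type, and Grhl3 44.0% and 51.2% in mutant and 50.2% and 46.5% in wild type, so these 2 shares overlapped. The summed level was 399 and 796 normalized counts per kilobase in mutant 18 and 14, and 377 and 296 in wild-type 15 and 20.

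Ovol1, a zinc finger repressor that in mouse epidermis restrains the proliferation of cells leaving the basal layer, gave the smallest unadjusted p of the 9. The gene (chr19:5549136-5560646, minus strand) had 555 and 854 normalized counts in mutant 18 and 14, against 344 and 346 in wild-type 15 and 20. The wild-type libraries had an SD of 1.43 about their mean of 345, and both mutant libraries lay above them. The log2 fold change was 0.997 (SE 0.22, unadjusted p = 0.00211, limma, adjusted p = 0.418). It stayed between 0.69 and 1.31 with each library left out in turn. Ovol1 shares 690 exon bases with the pseudogene Gm31166 and 76 with an antisense RNA in the GENCODE annotation, neither of which was analysed here.

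Gata3, a zinc finger factor of epidermal barrier and inner root sheath differentiation (chr2:9857078-9890034, minus strand), had 306 and 528 normalized counts in mutant 18 and 14, against 263 and 149 in wild-type 15 and 20. The genotypes did not overlap, but the wild-type libraries lay 0.82 apart on the log2 scale, beside a log2 fold change of 1.02 between genotypes (SE 0.34, unadjusted p = 0.0177, limma, adjusted p = 0.905). The fold change was 0.61 without wild-type 20 and 0.63 without mutant 14. Gata3 overlaps 4930412O13Rik on the other strand without sharing exon bases, and that gene was at 29.5 and 43.6 in mutant and 19.9 and 20.8 in wild type. It shares 77 exon bases with 9230102O04Rik, listed at 0 in all 4 libraries, and 155 with the antisense gene Gm13256, not analysed here.

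Klf4, a barrier factor of the upper epidermis (chr4:55527143-55532466, minus strand), had 3138 and 4705 normalized counts in mutant 18 and 14, against 3747 and 3034 in wild-type 15 and 20. Mutant 18 lay between the wild-type libraries. The log2 fold change was 0.19 (SE 0.21, limma, adjusted p = 0.9999), and it turned to -0.10 without mutant 14.

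Zfp750, whose human counterpart is a target of p63 and acts upstream of KLF4 in terminal differentiation (chr11:121510978-121519333, minus strand), had 980.005 and 1704 normalized counts in mutant 18 and 14, against 993 and 831 in wild-type 15 and 20. Mutant 18 again lay between the wild-type libraries. The log2 fold change was 0.51 (SE 0.25, limma, adjusted p = 0.9999), and it was 0.11 without mutant 14. The gene lies within Tbcd on the other strand, with no shared exon bases, and Tbcd was at 927 and 907 in mutant and 817 and 961 in wild type.

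Prdm1, a repressor used in the granular layer of mouse epidermis (chr10:44437177-44528501, minus strand), had 812 and 1080.3 normalized counts in mutant 18 and 14, against 784 and 669 in wild-type 15 and 20. The genotypes did not overlap, though mutant 18 lay close to wild-type 15. The log2 fold change was 0.37 (SE 0.18, limma, adjusted p = 0.9999), and it was 0.16 without mutant 14.

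Levels between genes were compared per kilobase of exon, using the union of GENCODE M21 exons, which may differ from the authors' gene models. In mutant the order was Klf4 at 1286 ± 364 normalized counts per kilobase, Zfp750 at 415 ± 158, Trp63 at 299 ± 37.3, Grhl3 at 291 ± 164, Grhl1 at 248 ± 102, Ovol1 at 202 ± 60.5, Prdm1 at 169.6 ± 34.0, Gata3 at 105 ± 39.4 and Grhl2 at 58.0 ± 14.8 (SD, n = 2). In wild type it was Klf4 at 1112 ± 165, Zfp750 at 282 ± 35.3, Trp63 at 255 ± 26.5, Grhl3 at 163 ± 36.5, Prdm1 at 130.2 ± 14.5, Grhl1 at 126 ± 27.1, Ovol1 at 98.8 ± 0.41, Gata3 at 51.8 ± 20.3 and Grhl2 at 47.1 ± 6.35 (SD, n = 2). Klf4 stood above all other factors in every library. Among wild-type neighbours, Zfp750 and Trp63, Prdm1 and Grhl1, and Gata3 and Grhl2 changed order between wild-type 15 and 20. Among mutant neighbours, Trp63 and Grhl3, and Grhl3 and Grhl1, changed order between mutant 18 and 14. Trp63, Grhl3 and Grhl1 were at 273, 175.6 and 175.9 in mutant 18 and at 326, 407 and 320 in mutant 14. The order within these pairs was thus not set by these values. The values of Grhl3 and Prdm1 overlapped across libraries, but Grhl3 lay above Prdm1 within each (189 against 140 in wild-type 15, 138 against 120 in wild-type 20). Trp63 and Grhl3, Grhl1 and Ovol1, and Ovol1 and Gata3 did not overlap in wild type.

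To set the later regulators against the basal factor, the log2 value of Trp63 was subtracted from that of each in the same library. The median over the other 8 genes of mutant minus wild type was 0.39, with a range of -0.041 for Klf4 to 0.79 for Gata3. Relative to Trp63, Grhl1 lay at -1.23 and -0.62 in mutant 18 and 14, against -1.30 and -1.95 in wild-type 15 and 20. Ovol1 lay at -2.04 and -1.68 in the mutants, against -2.52 and -2.73 in wild type. Gata3 lay at -2.90 and -2.37 in the mutants, against -2.91 and -3.94 in wild type, so mutant 18 and wild-type 15 differed by almost nothing. These 3 genes had no overlap between the genotypes, where 5.19% of all tested genes lay above and 34.6% lay below without overlap on this scale. None of the 8 lay below without overlap. With 2 libraries against 2 the smallest exact two-sided permutation p is 0.333. Any gene with no overlap has this value, so it adds nothing to the lack of overlap of these 3 genes. The median was 0.041 without mutant 14 and 0.12 without wild-type 20, and it was 0.75 without mutant 18 and 0.67 without wild-type 15.

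A second yardstick was the epithelial signal, taken as the mean log2 value of 10 pan-epithelial genes such as the adhesion gene Epcam and the splicing factor genes Esrp1 and Esrp2. All 10 were higher in mutant by their mean (median log2 fold change 0.42), 6 with no overlap, where 13.4% of all tested genes were. Their summed normalized counts were 6970.4 and 11602 in mutant 18 and 14, against 6707 and 7013 in wild-type 15 and 20. Relative to this mean, the median of mutant minus wild type over the 9 factors was 0.11, and 5 of the 9 lay above 0. Leaving out wild-type 20 gave 0.0061, and leaving out wild-type 15 gave 0.26. With the median of the 10 genes in place of their mean it turned to -0.033. Grhl1 lay at 1.06 and 1.13 in mutant 18 and 14, against 0.80 and 0.32 in wild-type 15 and 20. Ovol1 lay at 0.25 and 0.074 in the mutants, against -0.42 and -0.46 in wild type, and Gata3 at -0.60 and -0.62 in the mutants, against -0.81 and -1.67 in wild type. The log2 differences of these 3 genes were 0.54, 0.60 and 0.63, with no overlap between genotypes, where 3.62% of all tested genes lay above and 29.3% lay below without overlap on this scale. Against the median of the list only Grhl1 and Ovol1 kept no overlap. Trp63 lay at 2.30 and 1.75 in the mutants, against 2.10 and 2.27 in wild type, and Klf4 at 2.75 and 2.54 in the mutants, against 3.02 and 2.67 in wild type, so the values of these 2 genes overlapped.

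**Figure D2:**
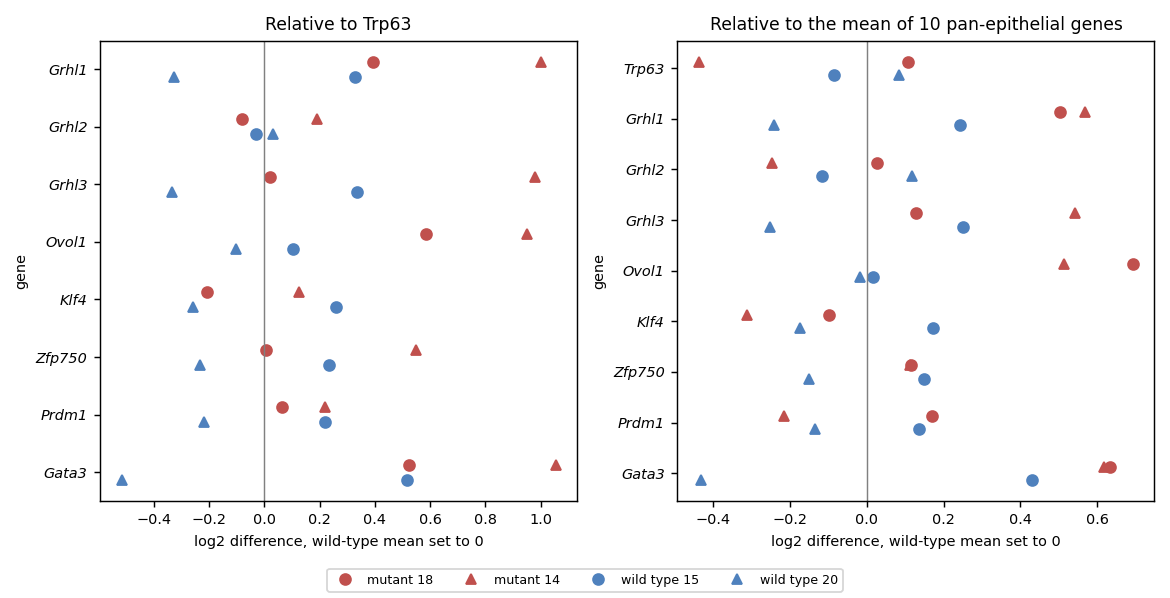
Log2 level of each factor relative to Trp63 (left) and to the mean of 10 pan-epithelial genes (right) in the same library, with the wild-type mean set to 0 on the horizontal axis; red, mutant 18 and 14; blue, wild type 15 and 20. On both scales the mutant points of Grhl1, Ovol1 and Gata3 lie to the right of both wild-type points, and those of Klf4 do not.

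The 9 genes did not share 1 pattern over the libraries. The distance between patterns was measured as the root mean square difference of log2 values centred over the 4 libraries, and the lists of keratinocyte layers served as landmarks. Trp63 and Grhl2 were nearest to the mean of the basal list (0.056 and 0.087), with wild-type 15 the lowest library. Grhl1, Grhl3 and Gata3 were nearest to the cornified list (0.095, 0.25 and 0.16), with wild-type 20 the lowest library. Grhl3 was almost as near to the pan-epithelial list (0.28). Ovol1 was nearest to the suprabasal list (0.14) and almost as near to the cornified list (0.15). Klf4, Zfp750 and Prdm1 were nearest to the pan-epithelial list (0.18, 0.12 and 0.17). These genes were lowest in wild-type 20, whereas the list's centred mean was lowest in wild-type 15 (-0.22, against -0.18 in wild-type 20). Across these libraries, 6 of the 9 were lowest in wild-type 20 and 3 in wild-type 15 (Trp63, Grhl2 and Ovol1, the last where wild-type 15 minus wild-type 20 was -0.0085 on the log2 scale). These distances are a description over 4 libraries that the genes and lists share.

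**Figure D3:**
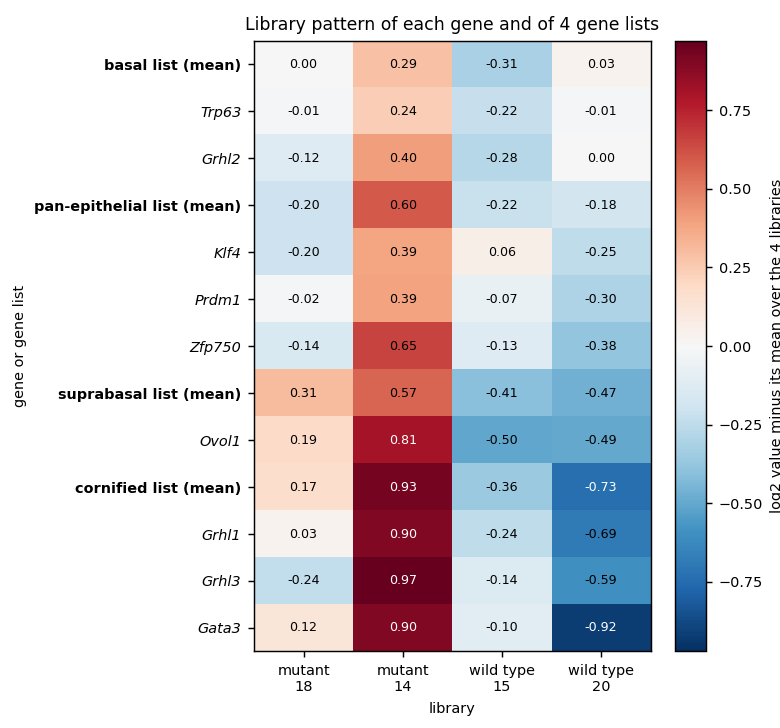
Log2 value minus its mean over the 4 libraries (colour scale and printed numbers) for the 9 factors and for the mean of 4 gene lists in bold, with mutant 18 and 14 on the left and wild type 15 and 20 on the right. Trp63 and Grhl2 lie nearest to the basal list, with wild type 15 lowest, and Grhl1, Grhl3 and Gata3 to the cornified list, with wild type 20 lowest.

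Single genes with a pattern close to that of a factor were sought among 12475 other genes with a mean of at least 100. The nearest to Grhl1 were Gldc (0.039), Phyhip (0.041) and Atg9b (0.045), and the nearest to Grhl3 were Cnfn (0.050), Syt1 (0.057) and Reep6 (0.061). Nearest to Ovol1 were Acpp (0.030), Npl (0.039) and Klk11 (0.041), and nearest to Gata3 were Ano7 (0.034), Nipal1 (0.051) and Cdsn (0.052). Of the 12475 genes, 334 lay within 0.1 of Trp63, 194 of Klf4, 26 of Grhl1, 15 of Ovol1 and 9 of Gata3. The distance is not scaled by how much a gene varies over the libraries, so these counts cannot be compared between factors. With 4 libraries, nearness is a description only.

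The genes of the keratinocyte layers were counted the same way. In the basal list, 9 of 10 genes had a fold change above 0, 3 with no overlap, and the median log2 fold change was 0.26. The basal keratin gene Krt5 was at 18755 and 22390 in mutant 18 and 14, against 11251 and 19312 in wild-type 15 and 20, so the genotypes overlapped. In the suprabasal list 12 of 12 lay above 0, 10 with no overlap (median 0.93), and Krt1, the keratin of cells that have left the basal layer, was at 43207 and 63337 in the mutants, against 26194 and 16815 in wild type. In the cornified list all 15 tested genes of 16 listed lay above 0, 13 with no overlap (median 1.10), with Casp14, the protease of cornification, at 1023 and 1612 in the mutants, against 562 and 378 in wild type. Of these lists, 0 genes were called over all genes (limma), while 2, 8 and 13 were higher at an unadjusted p under 0.05 in the basal, suprabasal and cornified lists. Of all tested genes, 13.4% were higher with no overlap and 3.12% were higher at that level. Without mutant 14 the medians of the basal, suprabasal and cornified lists were 0.12, 0.70 and 0.73, and that of the pan-epithelial list was 0.055.

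Reported targets of p63 and of the Grainyhead-like factors were described as lists, and the difference between the lists was not tested. Of 17 tested genes reported as p63 targets, 12 had a fold change above 0, 3 higher and 2 lower with no overlap. The median log2 fold change was 0.14 (0 called, limma, 2 higher at an unadjusted p under 0.05). Among all tested genes, 13.4% were higher and 14% lower with no overlap, and 3.12% were higher at that level. Perp, a desmosomal membrane protein, was at 10375 and 13727 in mutant 18 and 14, against 6537 and 7780 in wild-type 15 and 20 (adjusted p = 0.557, limma). The laminin chain gene Lama3 (log2 fold change 0.39) and the hemidesmosomal collagen gene Col17a1 (0.37) were the other higher genes. Fgfr2 (-0.12) and Chuk (-0.046), named after their values were seen, were the lower ones.

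Of 12 genes reported as Grainyhead-like targets, 11 had a fold change above 0, 10 of them with no overlap (median 0.73, 0 called, limma, 7 higher at an unadjusted p under 0.05). Among all tested genes, 13.4% were higher with no overlap and 3.12% were higher at that level. Dsg1a, a desmosomal cadherin, was at 5491 and 6584 in mutant 18 and 14, against 3456 and 3379 in wild-type 15 and 20 (log2 fold change 0.82, SE 0.14, limma, adjusted p = 0.310). The membrane protease gene Prss8 was at 289 and 489.6 in the mutants, against 191 and 157 in wild type, and the log2 fold change of Rab25, a small GTPase of epithelial cells, was 0.70. Arhgef19 (-0.26), named after its value was seen, was the gene below 0. The median was 0.28 without mutant 14. The lists of targets and of layers share genes, such as Dsg1a and Tgm1, so their counts are not independent. Most of the basal list (Krt5, Krt14, Col17a1, Itga3, Itga6, Itgb4 and Dst) is also in the p63 target list. The pan-epithelial genes Cdh1, Esrp1, Spint1 and Rab25 are also in the Grainyhead-like list.

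Other transcription factors of keratinocyte differentiation, 26 in all, lay in the same direction in 23 cases (median log2 fold change 0.41). Of these 11 were higher with no overlap, and 3, Cebpd, Maf and Satb1, named after their values were seen, were lower with no overlap. None was called (limma), and 6 were higher at an unadjusted p under 0.05. Over all tested genes, 13.4% were higher and 14% lower with no overlap, and 3.12% were higher at that level. Pou2f3, a POU factor of suprabasal epidermis, was at 244 and 474 in mutant 18 and 14, against 207 and 141 in wild-type 15 and 20. The homeobox gene Barx2 was at 596 and 898 in the mutants, against 457 and 466 in wild type. The POU gene Pou3f1 and the epithelial ETS gene Ehf had log2 fold changes of 0.99 and 0.74. Without mutant 14 the list's median was 0.19, and without mutant 18 it was 0.76.

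**Figure D4:**
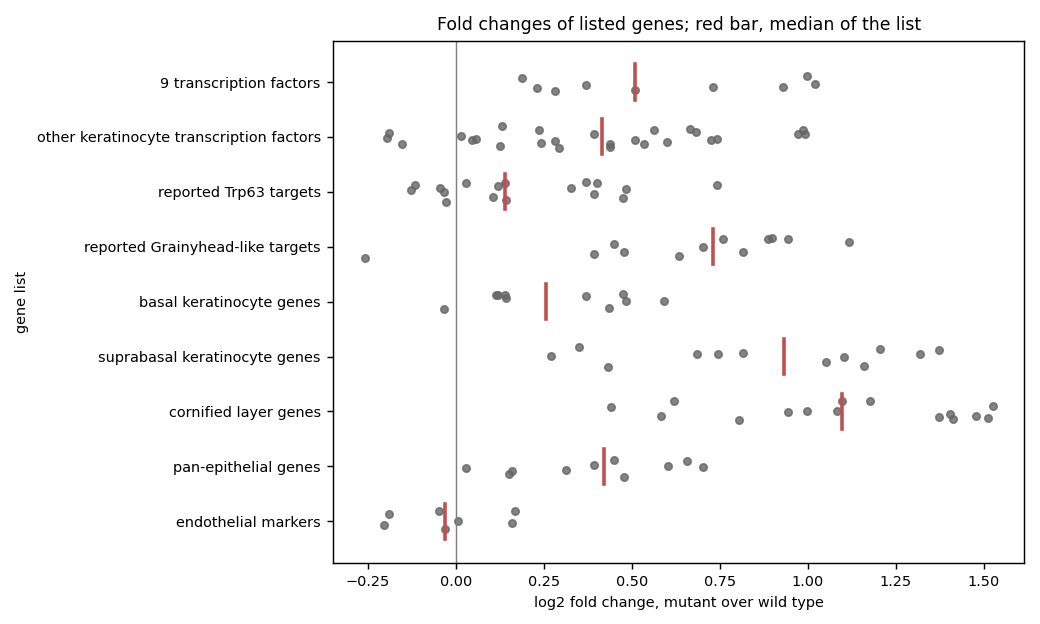
Log2 fold change, mutant over wild type, of each tested gene (grey points, spread vertically for legibility) in the 9 factors and in 8 gene lists; red bars mark each list's median. The median is 0.26 in the basal list, 0.93 in the suprabasal list, 1.10 in the cornified list and -0.029 for endothelial markers.

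Markers of other cell types that use these factors were read beside them. Endothelial markers, of which 7 of 7 were tested, summed to 12035 and 11555 normalized counts in mutant 18 and 14 and 12094 and 11778 in wild-type 15 and 20, with a median log2 fold change of -0.029. Of the 7, 3 lay above 0 and 4 below, 2 of them (Tie1 and Cldn5) lower with no overlap. The T cell receptor genes Cd3e and Cd3d, which define T cells, were at or near 0: Cd3d was listed at 0 in all libraries, and Cd3e had a mean too low for the test. Among other lymphoid markers, Lck, Rag1, Il7r and Cd3g were detected in every library. Lck was at 39.1 and 50.8 in mutant and 35.6 and 37.4 in wild type. Rag1 was at 18.1 and 30.3 in mutant and 15.9 and 18.6 in wild type. Il7r was at 24.9 and 9.03 in mutant and 34.1 and 9.78 in wild type. Cd3g was at 2.86 and 4.04 in mutant and 4.22 and 4.91 in wild type. Cd2 was near the floor, at 1.90 and 2.03 in mutant 18 and 14 and 0 and 0.98 in wild-type 15 and 20. Of the 6 tested, 4 had a fold change above 0 and 2 below. With no overlap, 2 were higher (Cd2 and Lck) and 1 lower (Cd3g), where 13.4% of all tested genes were higher and 14% lower. The 8 lymphoid markers summed to 614 and 757 in mutant and 558 and 657 in wild type, most of it from Thy1 (527 and 660.1 in mutant, 467 and 585 in wild type), a gene also used outside lymphocytes. The 6 markers of sympathetic and parasympathetic neurons summed to 759 and 932 in mutant and 666 and 554 in wild type, most of it from Hand2 (728 and 866 in mutant, 630.02 and 489.6 in wild type), which jaw mesenchyme also uses. The median log2 fold change was 0.23 over the 6 tested lymphoid markers and 0.24 over the 6 neuron markers. Of the neuron markers, 4 lay above 0 and 2 below, with 1 higher (Hand2) and 1 lower (Dbh, -0.54) without overlap.

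Hair follicle markers, 8 of 8 tested, summed to 3641 and 1851 in mutant 18 and 14 and 2202 and 1863 in wild-type 15 and 20 (median log2 fold change 0.46), most of it from Krt71 and Tchh. Of the 8, 3 were higher in the mutants with no overlap (Krt35, Krt31 and Hoxc13). Ameloblast markers, 7 of 7 tested, summed to 5551 and 1704 in mutant and 1352 and 5977 in wild type (median -0.49). Skin melanocyte markers, 6 of 6 tested, summed to 201 and 275 in mutant and 95.6 and 119 in wild type (median 1.44). All 6 were higher with no overlap, as were 13.4% of all tested genes. Of these 6, Mlana, Slc45a2 and Tyrp1 had wild-type values near the floor. Mlana was at 4.79 and 2.03 in mutant 18 and 14 and 0 and 0.98 in wild-type 15 and 20. With a mean of at least 10 the median was 1.08 over the 3 markers tested. With pseudocount 5 it was 0.95 over all 6. Salivary gland markers summed to 91.5 and 6265 in mutant 18 and 14 and to 67.6 and 75.3 in wild-type 15 and 20, where Dcpp2 and Smgc were at 0, and 8 of 9 were tested. Of these, 4 were higher with no overlap and the rest overlapped (median log2 fold change 4.91). Mutant 18 also held some, with Dcpp3 at 19.1 (1.05 and 0.98 in wild type) and Dcpp1 at 16.2 (3.16 and 0 in wild type). Without mutant 14 the median was 1.67 over the 4 markers still tested, of which 2 lay above 0 and 2 below. The part of the salivary, hair follicle and melanocyte markers in the levels of the 9 factors was not tested. Without mutant 14, the library with the most salivary transcripts, the log2 fold changes of Ovol1, Gata3 and Grhl1 were 0.69, 0.63 and 0.50. The other 6 factors lay between -0.10 and 0.16.

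Without wild-type 15, the library with female expression, the log2 fold changes were 1.43 for Gata3, 1.15 for Grhl1 and 0.99 for Ovol1. With 1 library in a genotype, lack of overlap is common: without wild-type 15 it held for 7 of the 9 factors, where 30.1% of all tested genes were higher with no overlap. Without mutant 18 it held for 9 of the 9 (30.9% of all tested genes), which had to follow because mutant 14 was highest for all 9. Without wild-type 20 it held for 6 (33%). Without mutant 14 it held for 4 (31.8%), the 4 that had no overlap with all libraries. Those 4 had to keep it whichever library was left out. Without wild-type 20 the log2 fold changes of Gata3, Grhl1 and Ovol1 were 0.61, 0.71 and 1.001. No fold change of the 9 factors was called in any of these fits, in which a lone library is assumed to vary like the other genotype.

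**Figure D5:**
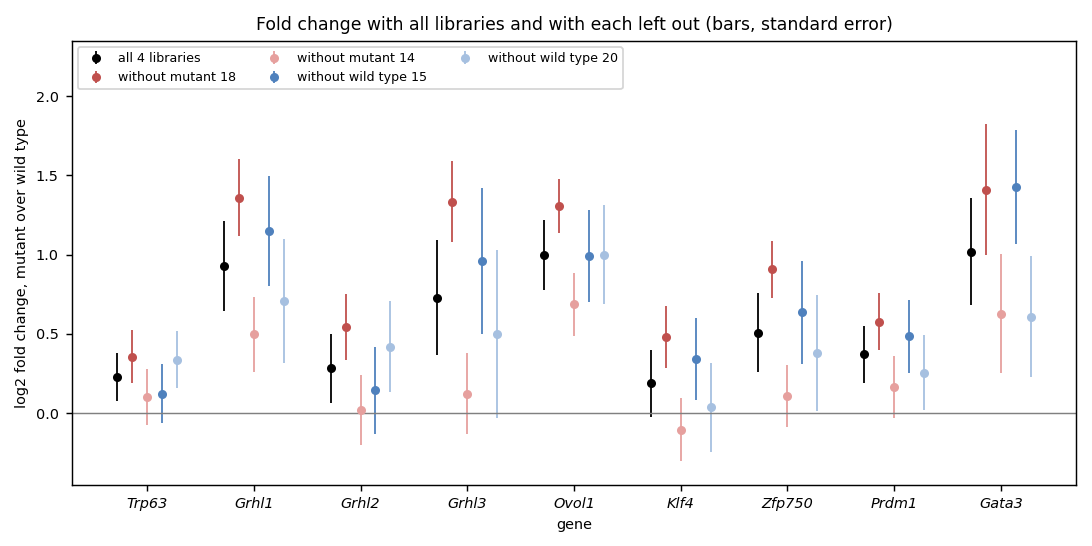
Log2 fold change of each factor, mutant over wild type, with all 4 libraries (black) and with each library left out (coloured); bars are standard errors from limma. Without mutant 14 the value is 0.69 for Ovol1 and -0.10 for Klf4; for Gata3 the value is lowest without wild type 20 (0.61).

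RefSeq windows of 300 bases around the transcription start (250 before it, GRCm38.p6) were at hand for 5 of the 9 genes, with 6 windows because Grhl1 has 2 starts. They were searched on both strands for CAGCTG, the E-box form favoured by Ascl class factors, which is also counted among E-boxes of any kind (CANNTG), for the Grainyhead-like core ACCGGT, for the GATA core AGATAA and for the KLF box CACCC. The first motif, CAGCTG, was in 3 of the 6 windows, where 16.3% of all 32851 RefSeq windows hold it. These 3 windows are printed because they pair genes that differed in their values above, Gata3 and Grhl1 with no overlap between genotypes and Klf4 with overlap. Capitals mark the CAGCTG matches and the KLF boxes, which read GGGTG where they lie on the other strand.
Gata3, chr2:9878551-9878850, minus strand: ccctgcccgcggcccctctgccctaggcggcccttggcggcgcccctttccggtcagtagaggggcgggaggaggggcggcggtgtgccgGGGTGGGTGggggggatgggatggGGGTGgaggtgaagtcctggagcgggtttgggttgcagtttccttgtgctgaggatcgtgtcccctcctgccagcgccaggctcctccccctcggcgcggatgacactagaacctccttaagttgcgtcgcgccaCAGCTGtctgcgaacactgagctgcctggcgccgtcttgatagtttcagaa
Grhl1 second start, chr12:24580469-24580768, plus strand: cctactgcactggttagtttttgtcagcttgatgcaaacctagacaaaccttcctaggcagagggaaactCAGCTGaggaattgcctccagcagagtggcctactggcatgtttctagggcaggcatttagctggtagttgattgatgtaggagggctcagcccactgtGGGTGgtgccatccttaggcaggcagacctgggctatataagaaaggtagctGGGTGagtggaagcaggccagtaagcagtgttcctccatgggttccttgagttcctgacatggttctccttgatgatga
Klf4, chr4:55532426-55532725, minus strand: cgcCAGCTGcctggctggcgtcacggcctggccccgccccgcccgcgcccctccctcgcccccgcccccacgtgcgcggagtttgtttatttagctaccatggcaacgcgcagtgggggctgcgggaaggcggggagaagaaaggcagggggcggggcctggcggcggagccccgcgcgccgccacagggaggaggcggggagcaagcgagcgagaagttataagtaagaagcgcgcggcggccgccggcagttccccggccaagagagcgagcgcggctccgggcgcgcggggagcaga
Counted from the transcription start, the CAGCTG begins at position -1 in the Gata3 window, -180 in the Grhl1 window and -247 in the Klf4 window. The starts used for Gata3, Prdm1 and the second start of Grhl1 lie inside the GENCODE gene spans given above. The windows of Grhl3, Prdm1 and the first start of Grhl1 held no CAGCTG. The KLF box CACCC was in the windows of Gata3, Grhl3 and the second start of Grhl1, and in 57.5% of all windows, and any E-box was in 5 of the 6 windows and in 72.3% of all. None of the 6 held the Grainyhead-like core (2.33% of all windows) or the GATA core (11.2% of all windows). A match is a run of letters and not evidence of binding.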

How the data were processed

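Polyadenylated RNA libraries were made with a strand-keeping kit, per the labels' protocols. The authors deposited 1 table of signal values, normalized counts rather than raw reads, with a column for each library. DESeq2 and genome build mm10 are named without version, per the submitters' processing notes. For the aligner, counter, strand setting and annotation, the version or name is not given in the sources used here. Only 32.3% to 35.03% of values above 0 were whole multiples, within 0.1, of the commonest low value, so whole reads were not recovered, and a count test was not used. No 2 libraries shared any value above 0.

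Values were transformed to log2(value + 0.5), which understates fold changes of low genes. Genes with a mean of at least 1 (17979) entered limma (version 3.58.1, R 4.3.3), whose variance moderation followed the mean-variance trend. P-values were adjusted by Benjamini-Hochberg over all genes at a threshold of 0.05. The script was tested on simulated data with the same spread for every gene, which checks the code and not the power for these genes. All 9 members passed the filter. Mutant and wild-type libraries were grouped by their labels.

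The members and gene lists were chosen with earlier results of these data known. Genes named from a list were the up to 4 with the smallest p, with the 3 genes nearest in pattern for some factors. Some genes that this rule names are not reported here. Genes named to describe the libraries, a marker sum or a member's neighbours were chosen after their values were seen. Coordinates and exon lengths came from GENCODE M21 (GRCm38, which mm10 denotes). Alternatives covered scaling, filter, pseudocount, variance settings and each library left out.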

Additional observations from a re-analysis of the deposited data

How the results depend on the processing

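No factor was called under any alternative. The smallest adjusted p was 0.216, for Ovol1 with robust variance moderation (limma). Of 108 fold changes of the 9 factors under the 12 alternatives, 1 turned direction, that of Klf4 without mutant 14 (-0.10, against 0.48 without mutant 18), and of the 72 with all libraries kept, 0 did. Over all genes, the 2 calls became 1 with no filter, 4 with pseudocount 1, 1 with no mean-variance trend, 4 with robust moderation and 0 to 6 with a library left out. With a library left out, the median log2 fold change of the factors ranged from 0.12 (without mutant 14) to 0.91 (without mutant 18). The number with no overlap ranged from 4 to 9, where 30.1% to 33% of all tested genes were higher with no overlap. The count of 9, without mutant 18, had to follow because mutant 14 held the highest value for all 9 factors. The median relative to the pan-epithelial genes turned to -0.033 with the list's median as the yardstick. It was 0.19 with a yardstick without 4 reported Grainyhead-like targets, chosen after seeing the data, as were the settings for gene lists and for overlap.

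Some list medians also turned direction. With a library left out, p63 targets ranged from -0.050 (without mutant 14) to 0.39, neuron markers from -0.44 (without mutant 14; -0.38 without wild-type 15) to 0.52, endothelial markers from -0.12 to 0.064 (without mutant 14), hair follicle markers from -0.060 (without mutant 18) to 0.80 and ameloblast markers from -1.53 to 0.27 (without wild-type 20). Neuron markers were at -0.084 with a mean of at least 10. The cause of these shifts was not tested. No paired analysis was possible because the sample codes 18, 14, 15 and 20 are not shared between genotypes. Read depth is unknown, because whole reads could not be recovered, so no counting interval is given.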
